A study of Rattus norvegicus with 40 samples.

Results

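Cyfip2, Ackr3, Vxn, Bambi and Mtus1 are 5 of the 10411 genes that the RAE230A rat array names with a single symbol. They were selected on their response to TCDD in liver at 19 h, because that response differed between rats with the wildtype aryl hydrocarbon receptor (AHR) and rats with a shortened AHR. Their values at 19 h are therefore given as a description, without a test of that response or of that difference. The 5 genes are covered by 6 probe sets, 2 of them for Mtus1 and 1 for each of the others.

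All rats were males of 10 to 12 weeks, and each array carried the liver RNA of 1 rat. Long-Evans (L-E) rats and Line-C (LnC) rats have the wildtype AHR, and they form the sensitive collective because TCDD is highly lethal to them. The resistant collective holds Line-A (LnA) and Han/Wistar (H/W) rats, whose AHR lacks a stretch of the transactivation domain. Both lines, LnA and LnC, descend from H/W by L-E matings. Rats of each strain/line received a single dose of TCDD, 100 µg/kg by gavage, or corn oil alone, and liver was taken at 19 h (8 groups). L-E and H/W rats were also studied at 3 h after the same dose of TCDD, and no corn oil group of 3 h was analysed here. Each of the 10 groups held 4 rats. The 4 rats of a group shared a cage, so cage and group cannot be told apart. The strains/lines differ at other loci too, so AHR genotype cannot be told apart from what else the members of a collective share.

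TCDD, the most potent dioxin, binds the AHR, a ligand-activated transcription factor held in the cytosol by chaperones. The bound receptor enters the nucleus, pairs with ARNT, and acts on DNA at AHR response elements that hold the letters GCGTG, inducing genes such as the cytochrome P450 gene Cyp1a1. The deletion in H/W and LnA rats lies in the part of the receptor that recruits coactivators, and these rats survive doses that kill L-E rats although Cyp1a1 is still induced. None of the 5 genes belongs to the classical AHR battery of drug-metabolising enzymes. CYFIP2 is a subunit of the WAVE regulatory complex, which couples the GTPase Rac to actin assembly, and it also binds the fragile X protein. ACKR3 (CXCR7) is an atypical chemokine receptor that removes the chemokine CXCL12 without signalling through G proteins. Vexin, encoded by Vxn, was described as a factor in neural progenitors. BAMBI is a membrane pseudoreceptor that lacks a kinase domain and dampens TGF-beta signals. MTUS1 is a microtubule-associated protein that also binds the angiotensin type 2 receptor.

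The promoters of Ackr3 and Cyfip2 are shown because these genes had like group means at 19 h while their matches to the AHR response element differed. The sequences cover the 250 bases before the start of each gene in RefSeq (build GRCr8), read 5′ to 3′ on the strand of the gene, with each GCGTG in capitals. Ackr3 lies on the + strand (chr9:98247104-98247353) and Cyfip2 on the - strand (chr10:31242441-31242690).
Ackr3: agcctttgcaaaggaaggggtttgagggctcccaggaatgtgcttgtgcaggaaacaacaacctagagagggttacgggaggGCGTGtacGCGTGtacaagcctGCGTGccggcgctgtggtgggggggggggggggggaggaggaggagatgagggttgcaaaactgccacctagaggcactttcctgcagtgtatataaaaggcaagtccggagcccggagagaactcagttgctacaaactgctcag
Cyfip2: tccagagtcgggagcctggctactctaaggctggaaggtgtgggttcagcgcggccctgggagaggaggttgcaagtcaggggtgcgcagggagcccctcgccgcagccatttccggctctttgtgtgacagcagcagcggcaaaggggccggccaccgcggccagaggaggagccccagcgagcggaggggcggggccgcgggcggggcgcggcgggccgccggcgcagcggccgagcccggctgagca

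GCGTG was searched on both strands of these windows. Ackr3 held it 3 times, all on the strand of the gene, with first bases at -168, -160 and -146 from the start. Cyfip2 and Bambi held it 0 times on either strand, and Vxn and Mtus1 had no entry in the promoter table. Of 33469 windows of the same length, 25.9% held GCGTG at least once and 2.58% at least 3 times. The longer form TNGCGTG was in 4.09% of all windows and in none of the windows of Ackr3, Cyfip2 and Bambi. These matches are a description of the letters in a short window, and no binding was measured here.

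Signals are GCRMA values on a log2 scale, on which a difference of 1 is a doubling. The medians of the 40 arrays lay between 3.52 and 3.76, and a probe set under the lowest of these medians was at the low end of the scale, where an absent and a very low transcript cannot be told apart. In corn oil rats Cyfip2, Ackr3 and Vxn were under 3.52 on 16 of 16 arrays and Bambi on 14 of 16. Their folds against corn oil therefore start from that low end and depend on where it lies. Mtus1 was clearly measured in every group. In these bulk liver samples, fewer cells of a type and less RNA per cell cannot be told apart.

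**Figure D1:**
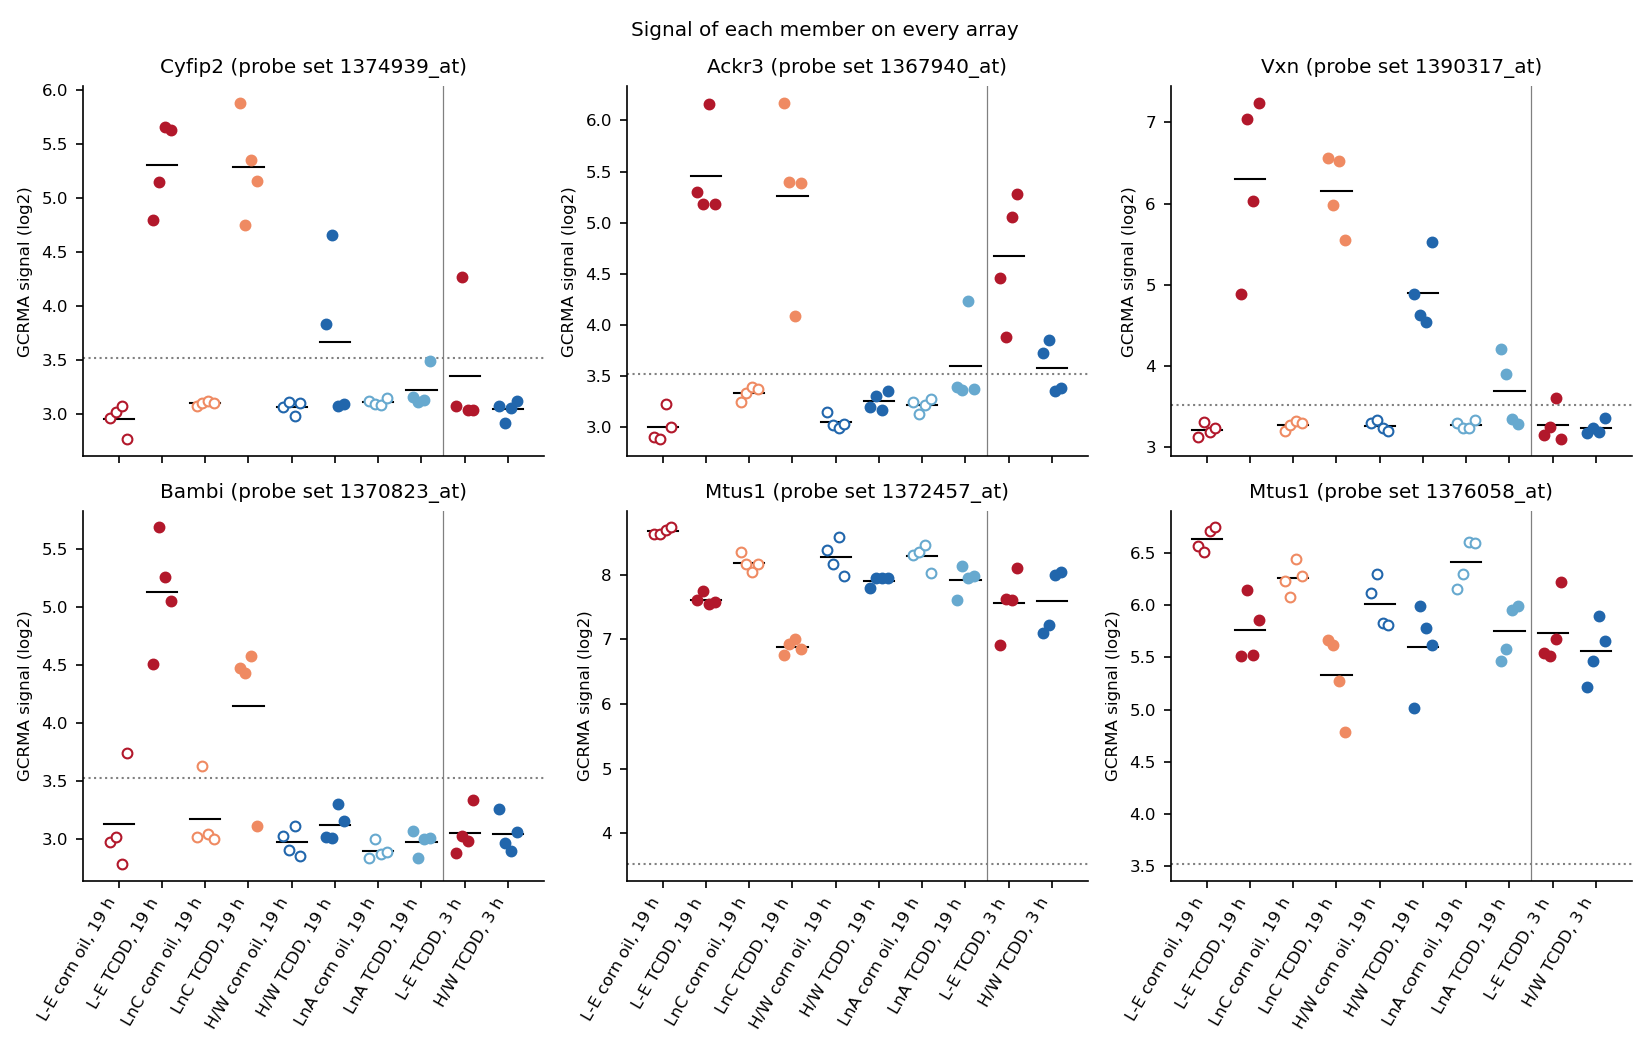
Each panel plots the log2 GCRMA signal of 1 probe set (y axis) on each of the 40 arrays by group (x axis). Filled circles are TCDD and open circles corn oil, red and orange are the sensitive strains/lines and blue tones the resistant ones, short black lines are group means of 4 rats, the dotted line is the lowest array median (3.52), and groups of 3 h stand right of the vertical line. Cyfip2, Ackr3, Vxn and Bambi stood near the dotted line in corn oil rats and had their highest means at 19 h in L-E and LnC rats after TCDD, while both Mtus1 probe sets had their lowest mean at 19 h in LnC rats after TCDD.

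Cyfip2 had near-identical signals after TCDD in L-E and LnC rats and much lower ones in H/W and LnA rats. In corn oil rats all 16 signals lay between 2.77 and 3.15. After TCDD the 4 L-E rats had 4.80, 5.15, 5.66 and 5.63. LnC rats had 5.89, 4.75, 5.36 and 5.16 after TCDD. Both groups stood far above their corn oil rats, with no overlap. H/W rats after TCDD had 3.83, 4.67, 3.08 and 3.10, so a pair of them stood above every H/W corn oil rat and the other pair did not. LnA rats had 3.16, 3.11, 3.13 and 3.496, the first 3 of which lay within or close to the corn oil range. TCDD minus corn oil was 2.35 ± 0.20 (log2, SE) in L-E, 2.19 ± 0.21 in LnC, 0.60 ± 0.33 in H/W and 0.11 ± 0.09 in LnA. As folds these were 5.11, 4.55, 1.52 and 1.08. Cyfip2 was the member whose 8 sensitive rats after TCDD (lowest 4.75) all stood above the 8 resistant rats after TCDD (highest 4.67).

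Ackr3 showed the same order of the collectives, with a wider spread in LnC. Corn oil signals ran from 2.88 to 3.39. After TCDD, L-E rats had 5.30, 5.18, 6.16 and 5.18. LnC rats had 6.17, 5.40, 4.09 and 5.39, all above their controls. H/W rats had 3.20, 3.31, 3.17 and 3.36 and LnA rats 3.40, 3.37, 4.24 and 3.38. In both resistant groups every TCDD rat was above every corn oil rat of its strain/line, but 7 of these 8 signals stayed under the lowest array median. The responses were 2.45 ± 0.23 (log2, SE) in L-E, 1.93 ± 0.39 in LnC, 0.21 ± 0.06 in H/W and 0.38 ± 0.19 in LnA. The highest LnA rat (4.24) was above the lowest LnC rat (4.09), so the collectives overlapped after TCDD.

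Vxn had the largest response of the 5 genes and differed most within the resistant collective. Corn oil signals lay between 3.13 and 3.33 in all strains/lines. After TCDD, L-E rats had 4.89, 7.04, 6.03 and 7.24 and LnC rats 6.56, 5.99, 6.53 and 5.56. H/W rats had 4.88, 4.62, 4.55 and 5.53, each above all corn oil rats. LnA rats had 4.21, 3.90, 3.35 and 3.28, so that only the first 2 stood clear of the LnA corn oil range of 3.24 to 3.33. The responses were 3.09 ± 0.50 in L-E, 2.89 ± 0.22 in LnC, 1.63 ± 0.20 in H/W and 0.41 ± 0.20 in LnA (log2, SE), or 8.5-fold, 7.4-fold, 3.1-fold and 1.33-fold.

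Bambi was high after TCDD in both sensitive groups, least evenly in LnC. L-E corn oil rats had 2.97, 3.01, 2.78 and 3.74, against 4.50, 5.68, 5.26 and 5.05 after TCDD. LnC corn oil rats had 3.02, 3.63, 3.04 and 3.00, against 4.47, 4.43, 4.58 and 3.11 after TCDD. Replicate 4 of the LnC TCDD group thus lay within the corn oil range, and the LnC groups overlapped. H/W signals ran from 2.85 to 3.11 in corn oil rats and from 3.01 to 3.30 after TCDD, and LnA signals from 2.83 to 3.00 and from 2.83 to 3.06. The responses were 1.996 ± 0.30 in L-E, 0.97 ± 0.35 in LnC, 0.14 ± 0.08 in H/W and 0.08 ± 0.06 in LnA (log2, SE). The LnC response was 1.32 without replicate 4 of its TCDD group.

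Mtus1 was the member that was lower after TCDD, from a well-measured level. With the brighter probe set, L-E rats had 8.63, 8.63, 8.70 and 8.74 with corn oil and 7.60, 7.75, 7.55 and 7.57 with TCDD. LnC rats had 8.35, 8.17, 8.04 and 8.17 with corn oil and 6.76, 6.92, 7.01 and 6.85 with TCDD. In neither did TCDD and corn oil rats overlap. H/W rats had 8.39, 8.17, 8.58 and 7.98 with corn oil and 7.80, 7.96, 7.94 and 7.95 with TCDD, a narrow gap with no overlap. LnA rats had 8.31, 8.35, 8.47 and 8.04 with corn oil and 7.61, 8.14, 7.95 and 7.98 with TCDD, and these overlapped. The differences were -1.06 ± 0.05 in L-E, -1.30 ± 0.08 in LnC, -0.37 ± 0.12 in H/W and -0.37 ± 0.13 in LnA (log2, SE). The dimmer Mtus1 probe set was lower after TCDD in all 4 strains/lines too, by -0.87 ± 0.15 in L-E, -0.92 ± 0.20 in LnC, -0.41 ± 0.22 in H/W and -0.66 ± 0.16 in LnA. It separated the collectives less, and its difference between them was -0.36 ± 0.20 against -0.81 ± 0.11 with the brighter probe set.

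Counted over the 5 genes, TCDD and corn oil rats did not overlap for 5 in L-E, 4 in LnC (not Bambi), 3 in H/W (Ackr3, Vxn and Mtus1) and 1 in LnA (Ackr3). Over all 10411 genes the groups did not overlap for 13.3% in L-E, 9.9% in LnC, 8.08% in H/W and 8.9% in LnA. For the 8 sensitive against the 8 resistant rats after TCDD, 1 member (Cyfip2) and 0.288% of all genes did not overlap. With corn oil, 0 of the 5 genes and 0.25% of all genes separated the collectives. As the members were chosen for these responses, nothing is read from these counts. In corn oil rats the collectives' means differed by 0.21 for Bambi and 0.14 for Mtus1 (log2, sensitive minus resistant) and by at most 0.06 in size for the other 3.

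**Figure D2:**
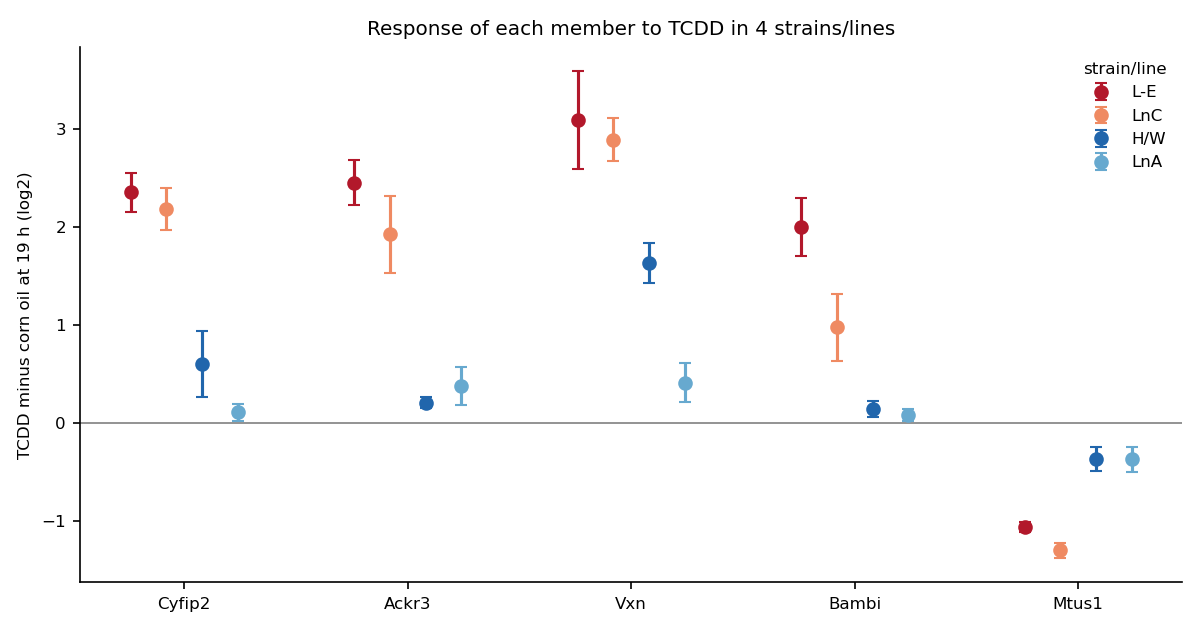
The y axis gives the log2 difference between TCDD and corn oil at 19 h for each of the 5 genes (x axis) in each strain/line, as the fitted mean of 4 against 4 rats with bars of 1 SE. For each gene the L-E and LnC points lie farther from 0 than the H/W and LnA points, and H/W lies apart from LnA for Vxn (1.63 and 0.41).

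The difference between the collectives, the mean response of L-E and LnC minus that of H/W and LnA over 32 arrays, was the measure that chose these genes. It was 1.91 ± 0.24 for Cyfip2, 1.90 ± 0.27 for Ackr3, 1.97 ± 0.33 for Vxn, 1.37 ± 0.25 for Bambi and -0.81 ± 0.11 for Mtus1 (log2, SE). Over all 10411 genes 0.0961% were called for this difference by limma at a Benjamini-Hochberg adjusted p under 0.01, and no call is given for the members, which were chosen on it. The mean response of the resistant collective was 34.2% of that of the sensitive collective for Vxn and 31.4% for Mtus1, on the log2 scale. The share of Vxn depends on corn oil signals at the low end of the scale. It also averages unlike responses, 1.63 in H/W and 0.41 in LnA. The share of Mtus1 is that of its brighter probe set, and the dimmer one separated the collectives less. For Cyfip2, Ackr3 and Bambi most resistant rats were at the low end of the scale and no such share is given. With values under the lowest array median set to that median, the response was 0 for Ackr3 in H/W, for Bambi in H/W and LnA and for Cyfip2 in LnA.

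**Figure D3:**
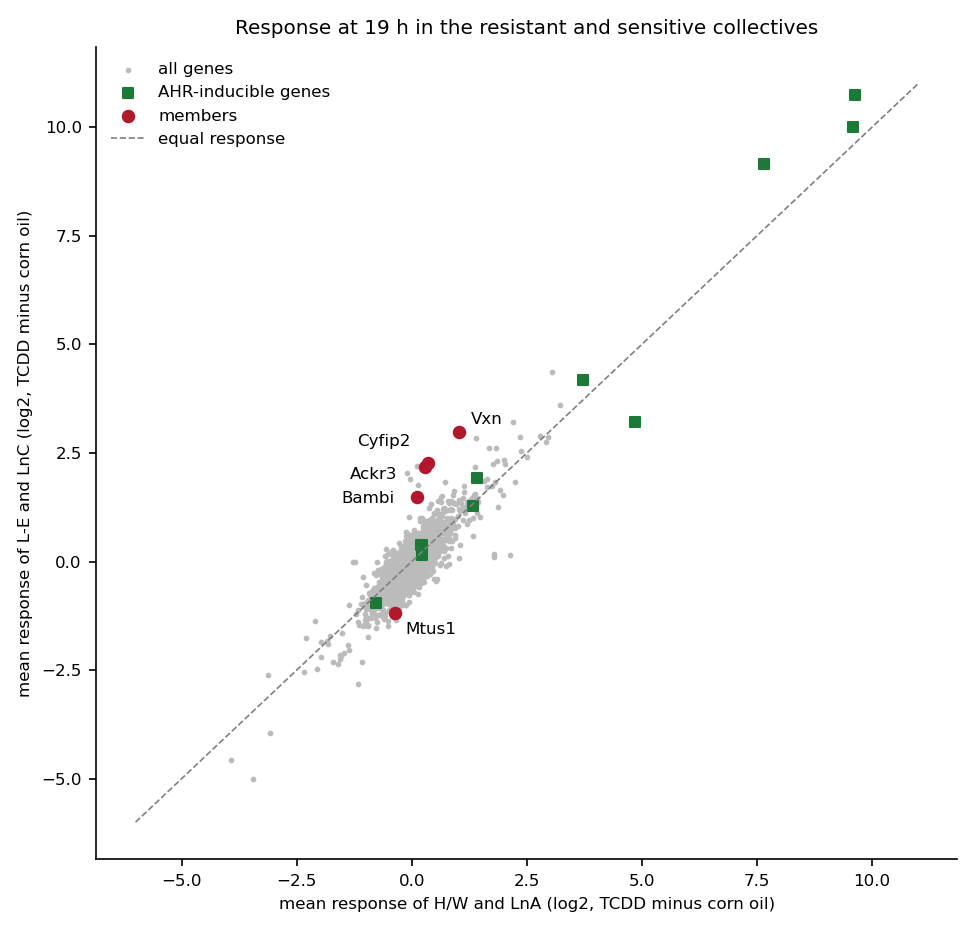
Each grey point is 1 of 10411 genes, placed by its mean log2 response to TCDD at 19 h in H/W and LnA (x axis) and in L-E and LnC (y axis), with the dashed line at equal responses. Members (red circles) lie off the line, with Vxn at 1.02 and 2.99. The most strongly induced AHR-inducible genes (green squares) are far out in both collectives, and Aldh3a1, at 9.64 and 10.75, is off the line too.

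Arrays were scanned on 5 days, and L-E and H/W arrays of 19 h were scanned on other days than those of LnC and LnA. The difference between the collectives was therefore also computed within a day. On the day of all LnC and LnA arrays, LnC minus LnA was 2.07 for Cyfip2, 1.55 for Ackr3, 2.48 for Vxn, 0.90 for Bambi and -0.93 for Mtus1. On the day with most L-E and H/W arrays (3 against 3 L-E rats, 2 against 2 H/W rats) L-E minus H/W was 1.70, 2.24, 2.23, 2.01 and -0.64 in the same order. On the day with 1 rat in each of these groups it was 1.07, 2.35, 0.17, 1.54 and -0.44. The direction was that of the pooled value in each day. The members were chosen on this difference in these same arrays, so nothing is read from that direction. The smallest difference was that of Vxn on the day with 1 rat a group, the day of the L-E TCDD rat with 4.89.

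**Figure D4:**
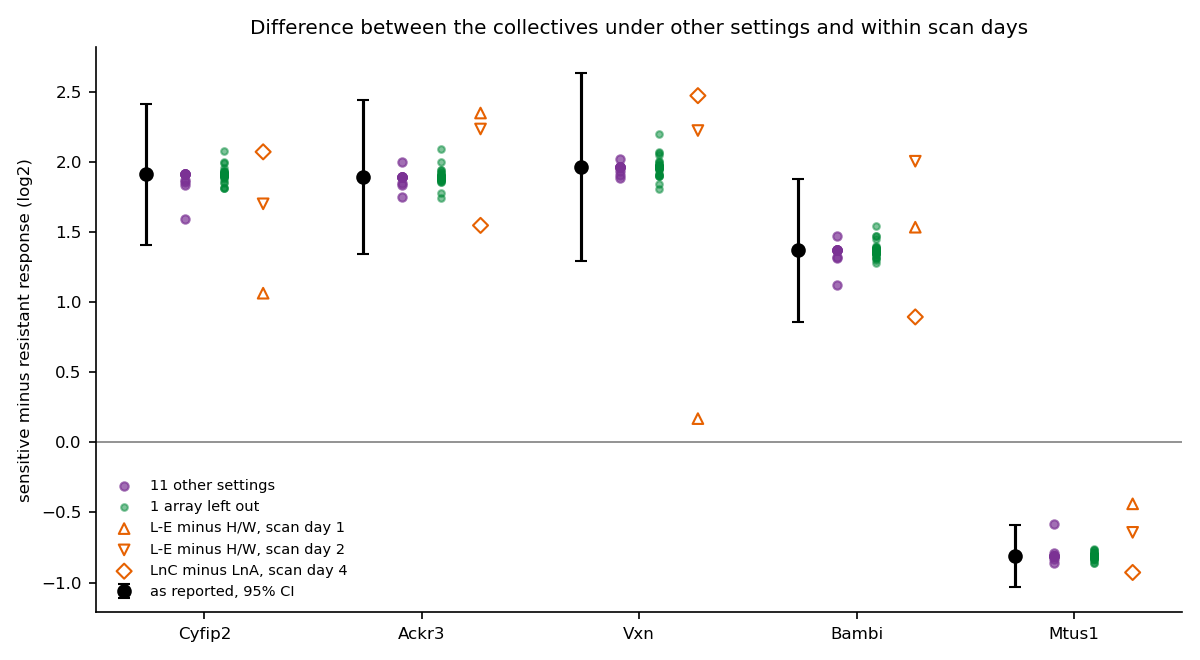
The y axis gives the sensitive minus resistant response (log2) of each member (x axis). Black circles show the value as reported with its 95% confidence interval, purple circles the 11 other processing settings, green circles the fits with 1 array left out, and orange symbols the difference within 1 scan day. All values of a gene lie on the same side of 0, with Vxn nearest to it on scan day 1 (0.17). The members were chosen on this difference in the same arrays, so nothing is read from the shared side.

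Strains/lines of the same AHR genotype were compared by contrasts other than the difference between the collectives. These contrasts use the same 19 h arrays, and the members were chosen with earlier results known. Likeness within a collective may thus have entered the choice, and the p-values are not independent of it. L-E minus LnC was 0.17 for Cyfip2 (95% confidence interval -0.49 to 0.83), 0.52 for Ackr3 (-0.50 to 1.55), 0.20 for Vxn (-1.02 to 1.42), 1.02 for Bambi (-0.0045 to 2.05) and 0.24 for Mtus1 (0.036 to 0.45). None was called by limma over all genes, with adjusted p = 0.756 for Mtus1 and 0.839 for Bambi and 0.999 for the other 3. Of all genes 0.00961% were called for this contrast. With intervals that reach 1.42 for Vxn and 2.05 for Bambi, the responses of L-E and LnC were not shown to be equal. For Mtus1 the smaller size of the L-E response had an interval just off 0 that did not pass the adjustment.

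Within the resistant collective Vxn differed most of the 5 genes. H/W minus LnA was 1.22 ± 0.30 (log2, SE) for Vxn with a 95% confidence interval of 0.57 to 1.86, and it was not called over 10411 genes (adjusted p = 0.427 by limma). After TCDD the H/W rats had Vxn signals of 4.55 to 5.53 and the LnA rats of 3.28 to 4.21. These groups were scanned on different days, and nothing is read from the gap between them. For Cyfip2 the difference was 0.49 (-0.29 to 1.28), for Ackr3 -0.17 (-0.62 to 0.29), for Bambi 0.066 (-0.16 to 0.29) and for Mtus1 0.00085 (-0.40 to 0.40). These 4 had adjusted p of at least 0.956 by limma, and 0.00961% of all genes were called for this contrast, 1 gene that is not a member. By the means of the responses, L-E and LnC stood together against H/W and LnA for Cyfip2, Ackr3 and the brighter probe set of Mtus1. With the dimmer Mtus1 probe set LnA (-0.66) lay between H/W (-0.41) and L-E (-0.87). For Vxn H/W lay between the sensitive groups and LnA, and for Bambi LnC lay between L-E and the resistant groups.

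The difference that chose the members was taken from the 19 h arrays. The choice was made with earlier results of these data known, so the p-values of 3 h may not be independent of it. Of the 5 genes Ackr3 differed most between L-E and H/W at 3 h. L-E rats at 3 h had Ackr3 signals of 4.46, 3.89, 5.05 and 5.28 and H/W rats 3.72, 3.86, 3.36 and 3.39, which did not overlap. L-E minus H/W was 1.09 ± 0.31 (log2, SE, 95% confidence interval 0.37 to 1.81), and it was not called (adjusted p = 0.0813 by limma). Differences of this kind were common at 3 h: the groups did not overlap for 32.5% of all genes, and 2.18% were called. With no corn oil group of 3 h here, a strain difference and a response to TCDD cannot be told apart at that time. The summed linear signal of 7 macrophage markers at 3 h also did not overlap, with rats between 4480 and 6690 in L-E and between 2930 and 3620 in H/W. Nor did that of 9 hepatocyte markers, at 257000 to 264000 in L-E and 236000 to 240000 in H/W, while the sums of the other marker lists overlapped. The part of these sums in the result was not tested.

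Set beside the corn oil rats of 19 h, which were scanned on other days, each L-E rat of 3 h (lowest 3.89) was above each L-E corn oil rat (highest 3.23) for Ackr3. Each H/W rat of 3 h (lowest 3.36) was also above each H/W corn oil rat (highest 3.15). The group means were 4.67 and 3.01 in L-E and 3.58 and 3.05 in H/W. In H/W the 3 h mean of Ackr3 was higher than its mean of 3.26 after 19 h of TCDD. Mtus1 at 3 h had 6.92, 7.63, 7.61 and 8.10 in L-E and 7.09, 7.22, 8.00 and 8.04 in H/W. Its means of 7.56 and 7.59 were close to each other, with L-E minus H/W at -0.024 (-0.77 to 0.73, adjusted p = 0.958 by limma). The SD of the brighter Mtus1 probe set at 3 h was 0.49 in L-E and 0.50 in H/W, against 0.05 to 0.26 in the 8 groups of 19 h. For the dimmer probe set it was 0.33 in L-E and 0.29 in H/W, within its range of 0.11 to 0.42 at 19 h. In L-E both Mtus1 probe sets were lower in every 3 h rat than in every corn oil rat, by -1.11 and -0.90 on average. In H/W they were lower on average too, by -0.69 and -0.45, and the groups overlapped. With corn oil each L-E rat was above each H/W rat for both Mtus1 probe sets, by 0.39 and 0.62 on average. Over all 10411 genes these corn oil groups did not overlap for 8.41%, and nothing is read from this separation.

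Cyfip2, Vxn and Bambi were at the low end of the scale at 3 h in nearly every rat. Cyfip2 was 3.08, 4.27, 3.04 and 3.04 in L-E, so that 1 rat stood out, and 2.92 to 3.13 in H/W. L-E minus H/W was 0.31 (-0.35 to 0.97, adjusted p = 0.404 by limma) for Cyfip2. Vxn ran from 3.10 to 3.61 in L-E and from 3.18 to 3.36 in H/W, and Bambi from 2.87 to 3.34 and from 2.89 to 3.26. Their differences were 0.037 (-0.23 to 0.30) and 0.012 (-0.26 to 0.29), with adjusted p = 0.812 and 0.942 by limma. Against corn oil, 3 h rats did not overlap for 2 of the 5 genes in L-E (Ackr3 and Mtus1) and 1 in H/W (Ackr3), and for 17.5% and 12.1% of all genes.

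The members' group means fell into the following orders, given as a description. For Cyfip2 the order was 5.31 in L-E and 5.29 in LnC after TCDD at 19 h, 3.67 in H/W after TCDD at 19 h and 3.36 in L-E at 3 h, with all other groups at 3.22 or less. The first pair overlapped, LnC and H/W did not, and H/W overlapped with L-E at 3 h. For Ackr3 it was 5.46 in L-E and 5.26 in LnC after TCDD, 4.67 in L-E at 3 h, 3.60 in LnA after TCDD and 3.58 in H/W at 3 h, and each of these overlapped with the next. Vxn was 6.30 in L-E, 6.16 in LnC, 4.89 in H/W and 3.69 in LnA after TCDD. For Vxn, L-E overlapped with both LnC and H/W. By a narrow gap LnC (lowest 5.56) did not overlap with H/W (highest 5.53), and H/W did not overlap with LnA. The pairs without overlap, here and for Cyfip2, came from different strains/lines and scan days. No share of all genes is given for these pairs. As the members were chosen on responses from these 19 h arrays, nothing is read from these gaps. For Bambi 5.12 in L-E and 4.15 in LnC came before all other groups at 3.17 or less, and LnC overlapped with L-E as well as with its own corn oil rats. The mean signal of Cyfip2 in L-E was above that of 32.5% of all genes with corn oil and of 57.5% with TCDD, so even its highest means were mid-range for the array. Mtus1 lay above 84.4% of genes in L-E corn oil rats and above 70.3% in LnC rats after TCDD.

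The genes most like each member over the 8 group means of 19 h were taken from the 1140 genes whose means spanned at least 1 on the log2 scale. Pearson's r over 8 means that share arrays is a description. For Cyfip2 they were Fam171a1 (r = 0.99), Vxn (0.975) and Ackr3 (0.973). Fam171a1 had means of 2.55 and 4.81 in L-E and 2.57 and 4.70 in LnC with corn oil and TCDD, against 2.57 and 2.79 in H/W and 2.58 and 2.59 in LnA. For Ackr3 they were Fam171a1 (0.982), Cyfip2 (0.973) and Bcl2l11 (0.944), which encodes the pro-apoptotic protein BIM. Those of Vxn were Cyfip2 (0.975), Bbs2 (0.966), a subunit of the ciliary BBSome, and Pxk (0.943). Bambi was most like Scn4b (0.986), a sodium channel beta subunit, Ajuba (0.966), a LIM domain protein, and Neurl3 (0.948). Scn4b had the same uneven pair of sensitive groups, from 2.54 to 5.24 in L-E and from 2.66 to 3.78 in LnC, and lay between 2.61 and 2.68 in H/W and LnA. Mtus1 was most like Pdk2 (0.956), a kinase that inhibits pyruvate dehydrogenase, Mpv17l (0.952) and Oxr1 (0.935), which is linked to oxidative stress resistance. When the 2 groups of 3 h were included, 2 of the 3 nearest genes stayed for Cyfip2, 0 for Ackr3 and 1 each for Vxn, Bambi and Mtus1. Bcl2l11 was high at 3 h in both strains, at 4.81 in L-E and 4.96 in H/W.

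AHR-inducible genes gave the measure of the receptor's action in the same livers. Of 15 listed, 11 were measured. In L-E 7 rose and 1 (Fmo1) fell, in LnC 7 rose, in H/W 5 and in LnA 7, at an adjusted p under 0.01 by limma. With 1 array left out, LnA had 3 to 5 calls in the 7 gene lists together, and H/W had 3 to 5 as well. All genes were called at 2.06% in L-E, 1.13% in LnC, 0.423% in H/W and 1.09% in LnA. Aldh3a1, an aldehyde dehydrogenase, rose by 11.14 ± 0.18 in L-E, 10.36 ± 0.10 in LnC, 9.83 ± 0.28 in H/W and 9.45 ± 0.20 in LnA (log2, SE). Cyp1b1 rose by 9.49, 8.85, 7.87 and 7.43 and the quinone reductase Nqo1 by 3.11, 3.34, 6.29 and 3.40 in the same order. The larger Nqo1 difference in H/W started from a low and uneven corn oil mean of 5.16 (SD 1.31), against 8.70 to 9.42 in the others. After TCDD the H/W mean of Nqo1 was the lowest, at 11.45 against 12.10 to 12.53. Cyp1a1 rose by 10.55, 9.45 and 8.73 in L-E, LnC and LnA. In H/W it was higher by 10.47 ± 1.34, with an adjusted p of 0.0142 by limma. Corn oil means were 3.98 to 5.695 for Cyp1a1 (SD 1.43 to 3.03), 2.82 to 3.60 for Aldh3a1 and 3.44 to 3.84 for Cyp1b1. The sizes for these genes thus start from low or uneven signals and depend on where the low end of the scale lies. Of the 11 genes, 0 were called by limma for the difference between the collectives (2 at an adjusted p under 0.05 and 4 at an unadjusted one, against 0.163% and 7.93% of all genes), and their median difference was 0.18 against 0.04 for all genes. At 3 h Cyp1a1 was at 14.10 in L-E and 13.99 in H/W, and Aldh3a1 at 10.85 in both. Cyp1b1 was at 5.11 and 4.31 at 3 h, against 12.96 and 11.71 after TCDD at 19 h. The AHR-inducible genes thus differed among themselves at 3 h, and no order in time between them and the members was tested.

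The AHR itself, with its partners, had 10 of 13 listed genes measured. Ahr rose in LnC by 0.91 ± 0.05 (adjusted p = 0.00049 by limma) and was higher by 1.48 ± 0.41 in L-E (adjusted p = 0.0902), 0.48 ± 0.28 in H/W and 0.63 ± 0.24 in LnA. Its means ran from 2.15 to 5.23, so several groups were under the lowest array median. Both LnC means, 2.15 with corn oil and 3.07 with TCDD, were among them. The LnC call thus lies at the low end of the scale, where an absent and a very low transcript cannot be told apart. Arnt had means from 3.34 to 4.09 and 0 calls. No other gene of the complex was called in a strain/line.

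Of the pathways in which the members act, 1 gene in all was called at the same threshold for TCDD against corn oil within a strain/line. In the WAVE complex and its Rac partners (13 of 19 listed genes measured) 0 were called in any strain/line. Cyfip1, the paralogue of Cyfip2, had means from 8.91 to 9.27 at 19 h. Of the CXCL12 axis (9 of 14) 0 were called, and Cxcl12, the chemokine that ACKR3 binds, had lower means after TCDD than with corn oil in each strain/line, at 11.06 and 11.84 in L-E, 10.69 and 11.07 in LnC, 11.09 and 11.37 in H/W and 10.74 and 11.23 in LnA. The list also holds means of the signalling receptor Cxcr4 between 3.32 and 3.62 at 19 h. In the BMP and TGF-beta pathway (37 of 44) 1 was called: Eng, an endothelial coreceptor, fell in L-E by 0.62 ± 0.08 (adjusted p = 0.0080 by limma), with differences of -0.72 in LnC, -0.42 in H/W and -0.68 in LnA that were not called. Among the angiotensin receptors and microtubule partners (15 of 17) and the neurogenic factors (11 of 13), 0 were called in any strain/line. Median responses of these 5 lists lay between -0.11 and 0.06, and those of all genes between -0.04 and 0.01. At an adjusted p under 0.05, between 0 and 3 genes of a list were called in a strain/line. At an unadjusted p under 0.05 by limma there were 1 or 2 genes of the WAVE list in each strain/line, 3 of the CXCL12 axis in L-E and 0 elsewhere, 4 to 6 of the BMP and TGF-beta pathway, 1 or 2 of the angiotensin list and 0 to 2 of the neurogenic factors. Of all genes 18.9% in L-E, 14.9% in LnC, 12.1% in H/W and 14.2% in LnA were under the unadjusted level, and 6.49%, 3.63%, 1.48% and 3.21% under the adjusted one.

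Agtr1a, the angiotensin type 1a receptor, was singled out after its values were seen. It had means of 3.95 to 4.31 in the 5 L-E and LnC groups and of 10.71 to 11.37 in the 5 H/W and LnA groups, whatever the treatment or time. L-E minus H/W at 3 h was -7.12 ± 0.16 (adjusted p = 4.29e-06 by limma). Agtr2, the receptor that MTUS1 binds, was between 2.64 and 2.75 in all groups.

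The tissue matched its label: 9 hepatocyte markers had a summed linear signal of 229000 to 280000 on every array, with Alb, Ttr and Serpina1 the brightest. Kdr and Lyve1 were the endothelial markers above the lowest array median, and 4 of 6 (Pecam1, Vwf, Flt1 and Tie1) were under it. Of 11 lymphocyte markers 9 were under it too, as were Des and Ngfr of 8 stellate cell markers and Krt19, Krt7 and Spp1 of 4 bile duct cell markers. At 19 h the summed signals of TCDD and corn oil rats overlapped in each strain/line for all 6 marker lists. Cd14, a macrophage coreceptor for endotoxin that was singled out after its values were seen, fell in LnC by 0.93 ± 0.11 (adjusted p = 0.0071 by limma), with differences of -0.91 in L-E, -0.71 in H/W and -0.28 in LnA that were not called. Cd14 did not stand for its list: in L-E and LnA every other measured macrophage marker had a higher mean after TCDD than with corn oil. In LnC all of the others but C1qb had lower means, and in H/W all but Cd68. The macrophage sum after TCDD at 19 h ran from 3250 to 4790 in L-E rats, while LnC rats had 2560 to 3860, H/W rats 2020 to 3130 and LnA rats 2070 to 2590. The medians were 4000, 3450, 2440 and 2240, and with corn oil the medians were 3920, 4270, 3160 and 2240. After TCDD the L-E rats were above every H/W and LnA rat, while LnC overlapped with both, and the part of this sum in the members' values was not tested.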

How the data were processed

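RNA of 40 rat livers was hybridised to Affymetrix RAE230A arrays, 1 array per rat, in 10 groups of 4 that were taken from the labels. The authors deposited a log2 signal for each probe set. The notes they filed list R 2.3.1 beside affy 1.10.0 and GCRMA 2.4.1. The study describes RMA with an Entrez probe map for its own results, and that route was not followed here. GCRMA draws unexpressed probe sets to a common low value, so folds from that value depend on it. The files of the scanner were used for scan days alone, and array number and signal over background limit the precision.

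The array has 15923 probe sets, of which 57 are controls (dropped) and 12783 have 1 symbol in the platform annotation. Each of 10411 genes was represented by the probe set that was brightest on average in the 32 arrays of 19 h. Entrez IDs gave the same symbol in RefSeq for 5 of 5 members. R 4.3.3 with limma 3.58.1 was used without a filter on low signals: TCDD against corn oil in the 8 arrays of a strain/line, the difference between collectives in 32 arrays, L-E minus LnC and H/W minus LnA responses in 16 arrays each, and L-E minus H/W at 3 h in 8 arrays. P-values got a Benjamini-Hochberg adjustment across all genes and were called under 0.01, and errors of fitted differences are SEs. The scripts were tested on simulated data.

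The members, gene lists and tests were chosen with earlier results of these data known. Named besides the members were the 3 genes nearest to each by Pearson's r, Ahr, Arnt, Cyp1a1 and Aldh3a1, and in each pathway list up to 4 called genes with the largest change. Alternatives were averaging probe sets per gene, each probe set tested alone, a filter on the lowest 40%, a floor at the lowest array median (3.52), quantile normalization, median centring, limma with trend and robust moderation, array weights, one fit of 10 groups, blocks of replicate number or scan day, and leaving out each array. The difference within a scan day was added after seeing the data.

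Promoters came from RefSeq's table for GRCr8, which held 3 of the 5 members.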

Additional observations from a re-analysis of the deposited data

Results flagged for a closer look

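In 60 groups of 4 arrays (6 probe sets, 10 groups), 7 held an array that stood apart from its group by Dixon's test at its 95% critical value, and chance alone marks about 5% of such groups. Ackr3 had a high L-E rat after TCDD at 19 h (replicate 3, 6.16, others 5.18 to 5.30) and a high LnA rat (replicate 3, 4.24, others 3.37 to 3.40). Without the LnA rat the H/W minus LnA response of Ackr3 was 0.045. Bambi had a high LnC corn oil rat (replicate 2, 3.63, others 3.00 to 3.04) and a low LnC TCDD rat (replicate 4, 3.11, others 4.43 to 4.58). For Mtus1 with the brighter probe set the lowest H/W TCDD rat was replicate 1 (7.80, others 7.94 to 7.96). Cyfip2 had a high LnA TCDD rat (replicate 4, 3.496, others 3.11 to 3.16) and a high L-E rat at 3 h (replicate 2, 4.27, others 3.04 to 3.08). Without that L-E rat, L-E minus H/W of Cyfip2 at 3 h was 0.0047 in place of 0.31.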

How the results depend on the processing

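The members were chosen on the sensitive minus resistant response in these same arrays. Its direction was therefore close to fixed in advance, and nothing is read from it. That response kept its direction for all 5 genes under all 11 settings and without any single array. It ran over 1.60 to 2.08 for Cyfip2, 1.74 to 2.09 for Ackr3, 1.81 to 2.20 for Vxn and 1.12 to 1.55 for Bambi. For Mtus1 it was -0.86 to -0.76 without single arrays and -0.58 with the mean of its probe sets. No L-E minus LnC, H/W minus LnA or 3 h difference of a member passed an adjusted p of 0.01 in any setting, the nearest being Ackr3 at 3 h (adjusted p 0.0127 to 0.189 by limma). Differences near 0 changed sign: Mtus1 H/W minus LnA with quantile normalization (-0.016), and Mtus1 at 3 h with the mean of probe sets (0.076), median centring (0.022) and array weights (0.038). Without single arrays, L-E minus LnC was -0.11 to 0.67 for Vxn and -0.012 to 0.37 for Cyfip2, H/W minus LnA was -0.10 to 0.10 for Mtus1 and -0.24 to 0.045 for Ackr3, and the 3 h difference was -0.082 to 0.084 for Bambi, -0.20 to 0.19 for Mtus1 and -0.074 to 0.097 for Vxn. The cause of these changes was not tested.

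Calls among the 7 gene lists together (9 in L-E, 8 in LnC, 5 in H/W, 7 in LnA) became 5, 2, 3 and 2 with the replicate block. In H/W they were 3 with the floor or the scan day block. In LnA they were 3 with the floor, quantile normalization or median centring. Without single arrays they were 6 to 8 in both L-E and LnC, 3 to 5 in H/W (3 without TCDD replicate 2 or 4) and 3 to 5 in LnA (3 without any array but corn oil replicate 1).

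Counts of all genes called moved more. The 1 gene of L-E minus LnC became 3 with every probe set tested and 0 with the lowest 40% left out, the floor, trend and robust moderation, or a block of replicate number or scan day. The 1 gene of H/W minus LnA became 2 with every probe set or array weights and 0 with the floor, median centring, trend and robust moderation or either block. With the floor the counts were 107 in L-E (214 as reported), 66 in LnC (118), 15 in H/W (44), 35 in LnA (113) and 79 at 3 h (227). One fit of 10 groups gave 719, 437, 268, 250 and 377 in that order. Leaving out the lowest 40% gave 346 in L-E and 72 in H/W. Quantile normalization gave 29 in H/W, 54 in LnA and 135 at 3 h, and median centring 27 in H/W and 44 in LnA. Array weights gave 192 in LnC, 108 in H/W and 180 in LnA, trend and robust moderation 70 in H/W, and the scan day block 16 in H/W. Without single arrays the counts were 8 to 15 between collectives (10), 0 to 5 for L-E minus LnC, 0 to 2 for H/W minus LnA, and 75 to 118 at 3 h. L-E had 83 to 173, LnC 52 to 106, H/W 16 to 46 and LnA 26 to 60.

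Neither labels nor methods say that equal replicate numbers mark paired rats. Deviations of same-numbered TCDD and corn oil rats, over 2245 genes with a variance above 0.1, correlated at 0.12 to 0.16 in LnA, and in no other strain/line did all 4 numbers pass 0.1. A block of replicate number left 3 calls between collectives, 40 in L-E, 5 in LnC, 18 in H/W, 11 in LnA and 33 at 3 h.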
